A study of Paralichthys olivaceus with 6 samples.

Results

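Megalin is encoded in fish by *lrp2a*, which was followed in gonads of the Japanese flounder. It was read from 8 of 52474 unigenes, the assembled sequences on which reads were counted. Members were taken by name: they are all unigenes that carry the symbol *lrp2a* in a list of 1225 unigenes which the study had selected as different between sterile and fertile gonads. The symbols come from sequence matches to zebrafish, mouse and human transcripts. Unigenes outside that list carry no symbol in the sources used here, so the assembly may hold other pieces of *lrp2a*. Because that list was drawn from the same fish, a difference of these 8 unigenes between the groups is given as a description, and nothing is read from the counts of calls that stand beside it.

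The fish were double haploid (DH) females of *Paralichthys olivaceus*, 5 years old, produced by mitotic gynogenesis, in which all chromosomes come from the mother and each locus is homozygous. They came from 1 wild mother, so they are sisters. The 3 sterile females had gonads at stage Ⅲ and the 3 fertile females had gonads at stage Ⅴ, so that fertility and ovarian stage cannot be told apart. Whole gonads were sequenced, 1 library per fish, although the labels also speak of pooled RNA. The libraries are called S1, S4 and S5 (sterile) and F1, F2 and F3 (fertile) after the columns of the count table, where S4 and S5 were placed in the sterile group by their letter. The column names of S4 and S5 also end in another word than those of S1 and the fertile fish. No source used here gives its meaning, and as it occurs in sterile fish only, what it marks and sterility cannot be told apart in S4 and S5. Values of S1 alone are therefore given beside the main results. The spread between libraries is taken as the spread between these fish. In whole gonads, a lower level in fertile fish may mean fewer cells of a type or less RNA per cell, and these cannot be told apart.

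Megalin is a very large receptor of the low-density lipoprotein receptor family that stands in the membrane of absorptive epithelia. In mammals it is best known from the kidney proximal tubule, where it takes up filtered proteins and carriers of vitamins A, D and B12 by clathrin-mediated endocytosis and hands them to lysosomes. In the ovary of egg-laying vertebrates, receptors of the same family bring yolk precursors into the oocyte.

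The 8 unigenes were *Contig27531*, *Contig27532*, *Contig27533*, *Contig27534* and *Contig27535*, which have consecutive numbers, *Contig25386*, and 2 assemblies that keep their Trinity names, *c8780_g1_i1_445_17880* and *c13114_g3_i1_339_22421*. The third number of a Trinity name was taken as the length, 445 and 339 bases, since its smallest value over 23690 such names was 201. Lengths of the contigs are not known here, so levels are not compared between the unigenes. The RefSeq table of the species (assembly ASM2471397v2) lists 1 gene named *lrp2a*, but it shares no identifier with the unigenes, and they were not placed on it.

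Summed over these 8 unigenes, *lrp2a* was sparsely counted, with higher levels in the sterile gonads. The sum leaves out any piece of the gene that is not in the study's list. The sums were 232, 324 and 597 counts in sterile fish S1, S4 and S5, against 140, 103 and 161 counts in fertile fish F1, F2 and F3. After TMM normalization, this was 9.17, 9.46 and 19.4 counts per 1000000 (CPM) in S1, S4 and S5, against 5.19, 3.49 and 5.36 CPM in F1, F2 and F3. Every sterile fish lay above every fertile fish, with S1 and S4 close together, S5 at 2.08 times the mean of those sisters, and F2 lowest. The 95% Poisson interval of the lowest sterile fish, 8.03 to 10.4 CPM in S1, did not meet that of the highest fertile fish, 4.57 to 6.26 CPM in F3. These intervals cover counting error only.

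The mean was 12.7 ± 5.81 CPM in sterile and 4.68 ± 1.03 CPM in fertile gonads (SD, n = 3 each), a ratio of 2.71 (1.44 on the log2 scale). Much of the size of that ratio came from S5: without it the sterile mean was 1.99 times the fertile mean, and S1 alone was 1.96 times the fertile mean. *Contig27535* held the largest share of the counts, and without it the other 7 unigenes together gave 5.10, 5.17 and 10.4 CPM in S1, S4 and S5, against 2.15, 1.69 and 2.53 CPM in F1, F2 and F3. That is a ratio of 3.24, with the fish in a like arrangement.

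**Figure D1:**
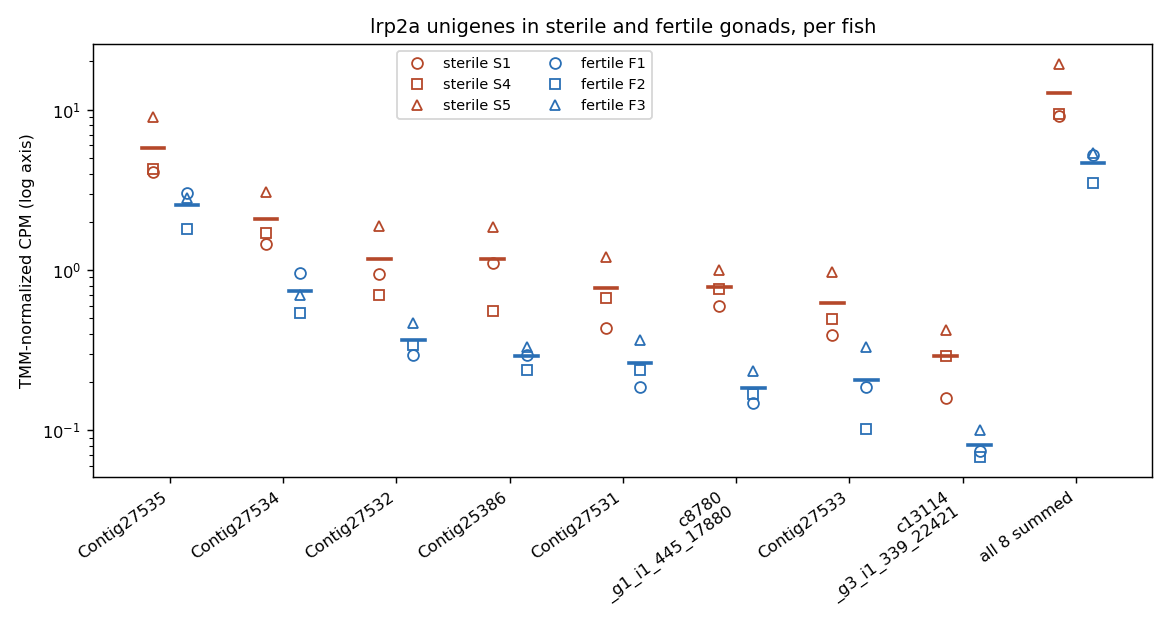
Level of each lrp2a unigene and of their sum in TMM-normalized CPM (log axis), per fish, with sterile fish (red) left of fertile fish (blue) and bars at the group means (n = 3 each). In each of the 8 unigenes and in the sum the sterile fish sit above the fertile fish, and S5 (triangle) is the highest.

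*Contig27535* was the most counted member, with 103, 147 and 276 counts in S1, S4 and S5, against 82, 53 and 85 counts in F1, F2 and F3. Its levels were 4.07, 4.29 and 8.96 CPM in sterile fish, against 3.04, 1.80 and 2.83 CPM in fertile fish. The groups did not overlap, but S1 was only 1.34 times F1. Its ratio of means, 2.26, was the lowest of the 8 and the nearest to the 2-fold limit by which calls are made, and without S5 it was 1.64.

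*Contig27534*, the next in depth, had 1.46, 1.69 and 3.08 CPM in S1, S4 and S5, against 0.964, 0.542 and 0.699 CPM in F1, F2 and F3. Again S5 stood apart and F2 was lowest, with a ratio of 2.83. Its neighbour in number *Contig27533* had few counts, 10, 17 and 30 in S1, S4 and S5, against 5, 3 and 10 in F1, F2 and F3. F3 equalled S1 in raw counts there, and the groups were separate only after scaling, at 0.395 CPM in S1 and 0.333 CPM in F3.

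*Contig27532* had 24, 24 and 58 counts in S1, S4 and S5, against 8, 10 and 14 counts in F1, F2 and F3, a ratio of 3.21 in CPM. *Contig27531* had 11, 23 and 37 counts in S1, S4 and S5, against 5, 7 and 11 counts in F1, F2 and F3, a ratio of 2.92. In both, F1 was the lowest fish, and in *Contig27531* the gap was the narrowest of all members together with *Contig27533*, the lowest sterile CPM being 1.19 times the highest fertile CPM.

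*Contig25386*, whose number lies apart from the other contigs, had 28, 19 and 57 counts in S1, S4 and S5, against 8, 7 and 10 counts in F1, F2 and F3. It was the only contig besides *Contig27532* in which S1 exceeded S4, at 1.11 CPM in S1, 0.555 CPM in S4 and 1.85 CPM in S5, against 0.297, 0.237 and 0.333 CPM in F1, F2 and F3. Its spread among the sterile fish was the widest of the members, with a coefficient of variation (CV) of 55.5%, and its spread among the fertile fish the narrowest, with a CV of 16.7%. The ratio of means was 4.05.

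The assemblies with Trinity names were thinly counted. *c8780_g1_i1_445_17880* had 15, 26 and 31 counts in S1, S4 and S5, against 4, 5 and 7 counts in F1, F2 and F3. Its ratio was the highest of the 8, 4.28, and its lowest sterile CPM was 2.54 times its highest fertile CPM, the widest gap of any member. *c13114_g3_i1_339_22421* had 4, 10 and 13 counts in S1, S4 and S5, against 2, 2 and 3 counts in F1, F2 and F3, a ratio of 3.61 on counts too small to order the fish within a group. Per kilobase of the length in their names, the first averaged 1.77 CPM in sterile and 0.413 CPM in fertile gonads, and the second 0.857 CPM in sterile and 0.238 CPM in fertile gonads. The first thus had the higher value in both groups. In fertile fish this rests on 4 to 7 counts against 2 or 3, and counting error was not set beside it.

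Over the 8 members, the ratio of the sterile to the fertile mean ran from 2.26 to 4.28 with a median of 3.11, and from 1.64 to 3.68 without S5. In 8 of 8 every sterile fish was above every fertile fish, an arrangement found in 11.2% of the 35787 unigenes that passed the filter on low counts. S5 was the highest library in 8 of 8, against 22.2% of all tested unigenes, and both arrangements held in 8 of 8, against 5.2%. Among the tested unigenes with every sterile fish above every fertile fish, S5 was highest in 46.3%. The lowest library was F2 in 5 members and F1 in 3. The list from which the members come was chosen on this contrast, in either direction. Separate groups thus follow in part from the rule, but not their direction. With every sterile fish above every fertile fish, the highest fish can only be a sterile one. In 7 of the 8 no fertile fish reached 1 CPM.

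The filter kept 7 members and left out *c13114_g3_i1_339_22421*. By edgeR's quasi-likelihood test (Benjamini-Hochberg adjusted *p* under 0.05 and over 2-fold), 0 of the 7 were called, with 0.137% of all tested unigenes called in either direction and 0.0559% called higher in sterile gonads. All 7 had an unadjusted *p* under 0.05 in the same test, as did 8.37% of all tested unigenes in the same direction. Low *p*-values follow in part from the choice of the list on this contrast, which took differences in either direction. DESeq2, run without that filter, called 4 of all 8 members, beside 0.621% of the 51881 unigenes with any count. Of the 7, limma-voom called 0 (0.0671% of all tested unigenes) and the exact test of edgeR 5 (1.49%). The fitted log2 fold changes of the 7, sterile over fertile, lay between 1.18 and 2.07 with a median of 1.57, beside a median of 0.0099 over all tested unigenes.

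The spread from fish to fish was wide. Within the sterile group the CV of the 8 unigenes ran from 26.4% to 55.5%, and within the fertile group from 16.7% to 56.7%, the highest fertile value being that of *Contig27533*. The biological coefficient of variation that edgeR fitted to the 7 tested members was 0.177 to 0.338, at percentiles 73.2 to 96.5 of all tested unigenes, whose median was 0.137. S5 was 1.49 to 2.28 times the mean of S1 and S4 in the 8 unigenes. S1 and S4 were close together in *Contig27535* but apart in several other members, also among the contigs with consecutive numbers. S1 was the higher of them in *Contig25386* and *Contig27532*, and S4 in *Contig27531*. The CVs and these orders include counting error. *Contig27532* had 24 counts in both S1 and S4, *Contig27531* had 11 and 23, and *Contig27533* had 5, 3 and 10 in F1, F2 and F3.

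Pieces of a single transcript would take the same share of its counts in every fish, whatever the level of the gene. *Contig27535* held 47.9% of the pooled *lrp2a* counts, *Contig27534* 16.2%, *Contig27532* 8.86%, *Contig25386* 8.29% and *Contig27531* 6.04%. The smallest shares were 5.65% for *c8780_g1_i1_445_17880*, 4.82% for *Contig27533* and 2.18% for *c13114_g3_i1_339_22421*. In 6 unigenes the 95% Wilson interval of each of the 6 fish held the pooled share. In *Contig27535* and *Contig25386* those of 5 of 6 fish did.

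The share of *Contig27535* was lowest in S1, at 44.4%, and highest in F1, at 58.6%. Pooled by group, it was 45.6% (Wilson interval 42.8% to 48.5%) in sterile and 54.5% (49.6% to 59.2%) in fertile gonads, the only member whose pooled intervals did not meet. This is the same feature as its smaller ratio between the groups. The pooled intervals cover counting error only and leave out the spread between fish, and the members were selected on this contrast. The share of *Contig25386* was 12.1% in S1 and 5.71% in F1, and in S1 its 28 counts stood against 19.2 expected from constant shares. Of the 48 counts, only that of *Contig25386* in S1 departed from expectation by over 2 times the square root of the expected count. Next by this measure was *Contig27535* in F1, with 82 counts against 67.1 expected. The measure is not adjusted for the share of a member or the total of a fish, so it does not rank departures between members.

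**Figure D2:**
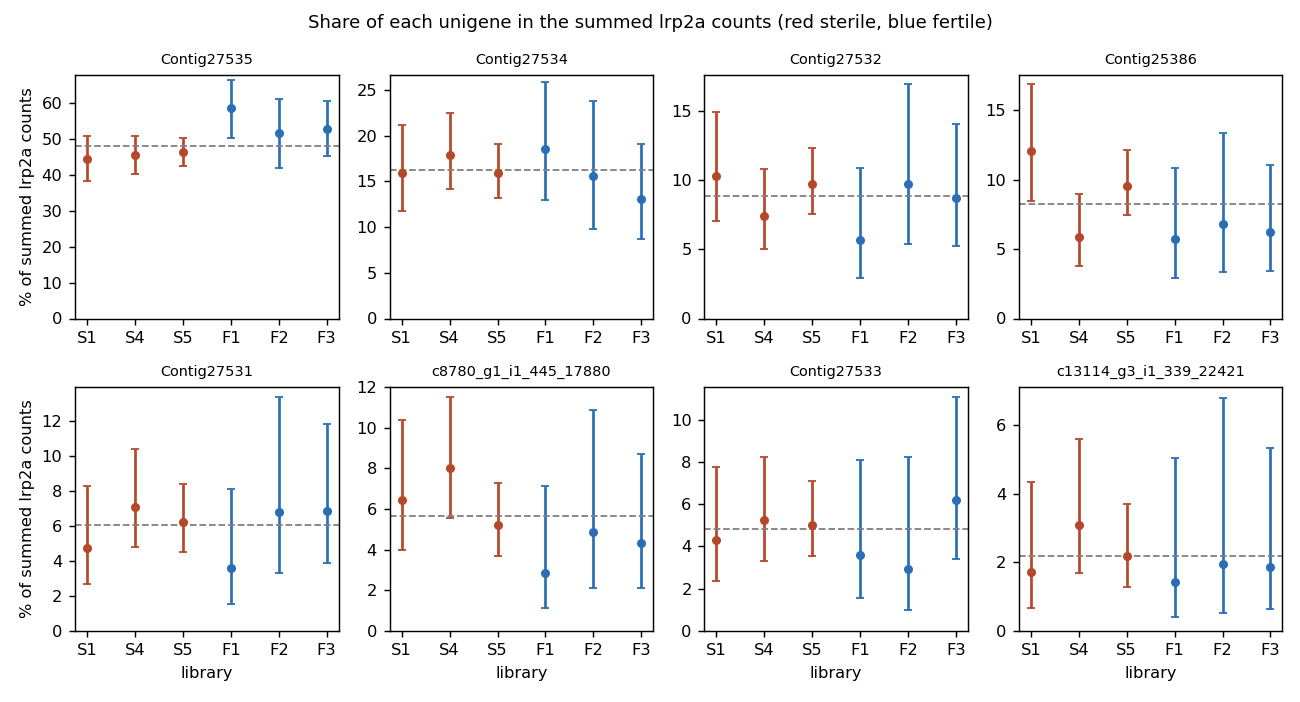
Share of each unigene in the summed lrp2a counts of a fish, in percent, with 95% Wilson intervals (sterile S1, S4, S5 in red, fertile F1, F2, F3 in blue) and the share pooled over all fish (dashed line); the y axes differ between panels. Most intervals hold the dashed line, and Contig27535 takes 45.6% of the pooled counts in sterile and 54.5% in fertile gonads.

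Over the table of 8 unigenes by 6 fish, the chi-square statistic of constant shares was 34.4 on 35 degrees of freedom, or 0.982 per degree, where counting error alone gives values around 1. Within the 3 sterile fish, over which the summed level varied most, it was 0.992 per degree, and within the 3 fertile fish 0.578. For the 5 contigs with consecutive numbers it was 0.726. The same quantity was computed for 109 other symbols with at least 2 unigenes in the study's list. Its median was 1.17 and its highest value 3044, and 65 of the 109 lay under 1.5. Among the 31 of these with 500 to 5000 counts in all, the median was 2.46 and 9 lay under 1.5. Within a group, the shares of *lrp2a* thus varied by about as much as counting error or less, at a depth that would leave small differences unseen. Between the counts pooled by group the statistic was 12.0 on 7 degrees of freedom, or 1.71 per degree, the departure being largest for *Contig27535*. Pooling leaves out the spread between fish. The members were selected on the difference between the groups, so the likeness of their shares over all 6 fish follows in part from the rule.

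The ratio of 2 members within a fish needs no normalization. Only *Contig27535* and *Contig27534* had at least 10 counts in every library, and the standard deviation of their log2 ratio over the 6 fish was 0.234, below the 0.304 that counting error alone gives. With 0.5 added to each count, the median standard deviation over all 28 pairs was 0.430. For the 21 pairs of tested members, the standard deviation was 0.535 to 1.26 times that from counting error, with a median of 0.830, and all 21 lay under 1.5 times. Pairs of tested contigs with consecutive numbers in the whole assembly lay under 1.5 times in 46.0% of 26348 pairs, and other unigenes that share a symbol in the study's list in 67.6% of 136 pairs. Members have few counts and so a large counting error, and those percentages are not matched for depth. The members were also selected on the difference between the groups, so steady ratios over all 6 fish follow in part from the rule.

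**Figure D3:**
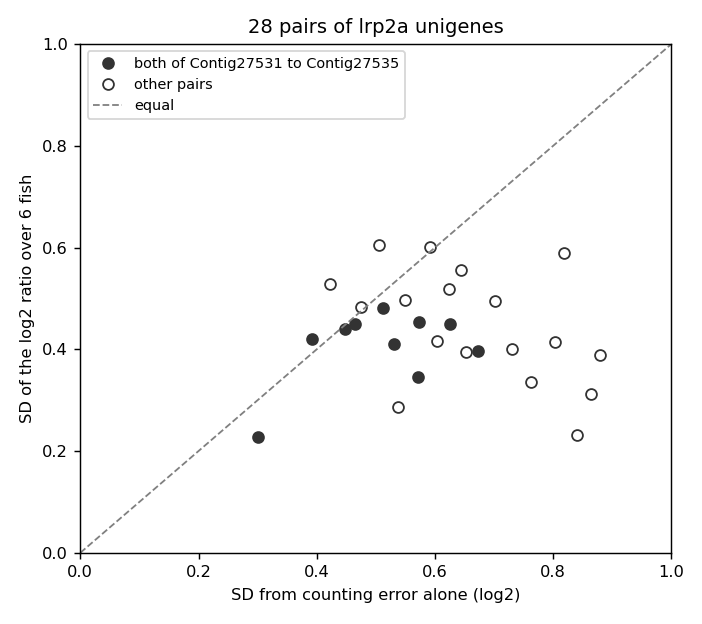
Standard deviation over the 6 fish of the log2 ratio of counts of 2 lrp2a unigenes (0.5 added to each count), against the standard deviation that counting error alone gives, for all 28 pairs (filled: both of Contig27531 to Contig27535; dashed line: equal). Points lie on both sides of the line and none is far above it.

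Whether the members follow each other from fish to fish was also read from their profiles. When all tested unigenes were ordered by their distance from a member after the means of both groups were removed, another member stood at a median rank of 2361.5 of 35786, within the nearest 6.60%, with a range from 52 to 31416. This closeness rested on S5: without that fish the median rank was 18599.5, near the middle of the table. With only the overall mean removed, so that the difference between the groups counted too, the median rank was 181. The members were selected on that difference, so this rank follows in part from the rule.

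Neighbours in the numbering were in part like the members. *Contig27536*, directly after *Contig27535*, had 10.1, 10.2 and 17.8 CPM in S1, S4 and S5, against 9.23, 9.22 and 8.99 CPM in F1, F2 and F3, a ratio of 1.39 with separate groups and S5 again highest. *Contig27530*, directly before *Contig27531*, had a ratio of 1.15 and overlapping groups. *Contig25385* had a ratio of 2.20 with separate groups, S1 highest and F2 lowest, and *Contig25387* a ratio of 0.822 and overlapping groups. The 4 neighbours of the members with Trinity names had 4 to 48 counts in all and overlapping groups, and among them *c13111_g1_i1_205_22420* had a ratio of 2.04, with S5 highest and F2 lowest. None of these 8 had a symbol in the study's list, and no sequence was available to compare them with *lrp2a*.

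The profiles most like that of summed *lrp2a*, among unigenes with a symbol, were those of *c1qc*, a chain of complement C1q made by macrophages, and *Contig1905*, one of 2 unigenes of *ctsk*, the lysosomal protease cathepsin K. Likeness was the root mean square difference of log2(CPM + 0.5) over the 6 fish, each profile centred on its own mean, and it was 0.10 for both. *c1qc* had 11.3, 9.66 and 22.3 CPM in S1, S4 and S5, against 5.78, 3.52 and 6.36 CPM in F1, F2 and F3. *ctsk* had 6.21, 6.71 and 14.2 CPM in S1, S4 and S5, against 2.93, 2.44 and 3.60 CPM in F1, F2 and F3. Both thus had S5 at the top and F2 at the bottom, as *lrp2a* did. The next were *slc3a2b* (0.12), a partner subunit of amino acid transporters, *LOC570839* (0.13), *LOC555478*, which is also in the kidney tubule list, and *stoml3b* (0.14 each), *tnfsf10* (0.15), a cytokine of the tumour necrosis factor family, and *prg4a* (0.16), which encodes lubricin. These genes were chosen by the study on the same contrast. Tested members themselves stood at ranks from 10, for *Contig27535*, to 238, for *Contig27531*.

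Transcripts of genes whose proteins are known in mammals as cargo of megalin had higher values in every sterile than in every fertile fish in 4 of 6 unigenes, beside 11.2% of all tested unigenes, and none of the 4 was called. The list held 6 unigenes, of which 5 passed the filter. *apoeb*, which encodes an apolipoprotein E, had 588, 1093 and 1934 CPM in S1, S4 and S5, against 204, 60.5 and 126 CPM in F1, F2 and F3. *sepp1a*, for the selenium carrier selenoprotein P, had 151, 221 and 411 CPM in S1, S4 and S5, against 85.3, 70.2 and 85.9 CPM in F1, F2 and F3. In both the groups were separate and S5 was highest, as in the receptor.

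The ratio of means was 3.58 for *tcn2l*, named for the vitamin B12 carrier transcobalamin, and 3.03 for *cst3*, for the protease inhibitor cystatin C, with S5 highest in both. *lpl*, lipoprotein lipase, went the other way, with 1.78, 1.02 and 1.98 CPM in S1, S4 and S5, against 5.38, 9.38 and 6.29 CPM in F1, F2 and F3. *b2m*, for beta-2-microglobulin, had 13 counts in S4, 7 in S5 and 0 in every other library. edgeR's quasi-likelihood test called *lpl* higher in fertile gonads and none of the other 4 tested cargo unigenes, and the median log2 fold change of the 5 was 1.70. No gene of this list, or of those that follow, was chosen independently of the contrast. Over all tested unigenes 0.137% were called in either direction, the share to set beside the calls in each of these lists.

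Genes of lipoprotein handling, endocytosis and the lysosome, through which cargo passes after uptake, had mostly positive fold changes. They were selected on the contrast in either direction, so that they differ follows from the rule, but not the sign. None of the unigenes in the lipoprotein, endocytosis and lysosome lists was called, beside 0.137% of all tested unigenes in either direction. *lpl*, lipoprotein lipase, was placed in the cargo list instead, and it was called higher in fertile gonads. In lipoprotein and cholesterol handling 3 of 5 unigenes were tested, with a median log2 fold change of 2.01. The 2 unigenes of *Abca1*, a cholesterol exporter, differed in their ratios, 2.23 for *Contig28268* and 4.02 for *Contig28267*. *apoc2*, for the activator of lipoprotein lipase, had 1.15, 5.05 and 6.68 CPM in S1, S4 and S5, against 0.445, 0.0339 and 0.133 CPM in F1, F2 and F3. Here S1 was nearer to the fertile fish than to its sterile sisters, unlike in *lrp2a*. *Apod*, for apolipoprotein D, was not tested and had 0, 0 and 6 counts in S1, S4 and S5, against 6, 10 and 16 counts in F1, F2 and F3.

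Of 7 unigenes for endocytic receptors and vesicle formation 5 were tested, with 5 positive fold changes and a median of 1.45 on the log2 scale. S5 was highest in 7 of 7, beside 22.2% of all tested unigenes. In 6 of the 7 every sterile fish was above every fertile fish. Among tested unigenes with that arrangement S5 was highest in 46.3%. *scara5*, a scavenger receptor that takes up ferritin in mammals, had 4.74, 4.70 and 7.40 CPM in S1, S4 and S5, against 2.15, 1.86 and 2.33 CPM in F1, F2 and F3. The groups were separate, S1 and S4 were close together as in *lrp2a*, and the ratio was 2.65. *dnm2a*, for dynamin, which cuts endocytic vesicles from the membrane, had between 0 and 12 counts in a library and was not tested.

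All 10 lysosomal unigenes were tested, and 9 had positive fold changes, with a median over the 10 of 1.51 on the log2 scale. The ratio was 3.03 for *Contig1905* and 2.12 for *Contig27323*, both *ctsk*, and 2.68 and 2.57 for the 2 unigenes of *ctssb.1*, a cathepsin S used in antigen presentation. *grna*, for the lysosomal protein granulin, had ratios of 3.14 and 2.73. The exception was *ctsd*, named for the aspartic protease cathepsin D, with 1, 9 and 6 counts in S1, S4 and S5, against 31, 17 and 15 counts in F1, F2 and F3.

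Markers of leukocytes were arranged between the groups as *lrp2a* was. In 15 of 15 leukocyte unigenes, 11 of them tested, all sterile fish were above all fertile fish and S5 was the highest, and the median log2 fold change of the 11 was 1.49, with none called. Over all tested unigenes the groups were separate in this direction in 11.2%, and with S5 highest in 5.2%, but the 15 were selected on the contrast. Their summed level was 67.5, 49.2 and 107 CPM in S1, S4 and S5, against 27.6, 17.7 and 33.0 CPM in F1, F2 and F3. The macrophage receptor *csf1ra* had 1.58, 1.31 and 2.47 CPM in S1, S4 and S5, against 0.704, 0.339 and 0.766 CPM in F1, F2 and F3. The leukocyte integrin *itgb2* had a ratio of 3.30, and *spi1b*, which directs the formation of myeloid cells, one of 2.57.

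Set against these markers, *lrp2a* did not separate the groups. Both were selected on the contrast and had like ratios of means, 2.71 for *lrp2a* and 2.86 for the list. Little separation could therefore remain in their quotient, and nothing is read from its overlap. Per 100 CPM of the leukocyte list, summed *lrp2a* was 13.6, 19.2 and 18.0 CPM in S1, S4 and S5, against 18.8, 19.7 and 16.2 CPM in F1, F2 and F3. The mean was 16.9 ± 2.97 in sterile and 18.3 ± 1.79 in fertile gonads (SD, n = 3 each). Per 100 CPM of the endocytosis list it was 78.4 to 103 CPM in sterile and 88.8 to 93.6 CPM in fertile fish, and per 100 CPM of the lysosome list 10.6 to 13.2 CPM in sterile and 13.0 to 13.7 CPM in fertile fish, overlapping in both. The quotients to the lipoprotein, kidney tubule, pancreas and erythrocyte lists also overlapped between the groups, so overlap was not particular to leukocytes. For pancreas and erythrocytes only S1 overlapped with the fertile fish, as its sums of these lists were low, at 5.53 and 0.356 CPM. Per 100 CPM of the kidney tubule list, *lrp2a* was 16.1 to 26.4 CPM in sterile and 6.75 to 18.2 CPM in fertile fish. Per 100 CPM of the ovarian steroid cell list, it was 62.0 to 125 CPM in sterile and 6.89 to 18.3 CPM in fertile fish, without overlap. Per 100 CPM of the cargo list, which *apoeb* and *cst3* dominate, *lrp2a* was lower in all sterile fish, at 0.442 to 0.658 CPM, than in the fertile fish, at 0.719 to 0.985 CPM. These quotients were chosen after the levels had been seen. The part of leukocytes in the *lrp2a* difference was not tested.

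**Figure D4:**
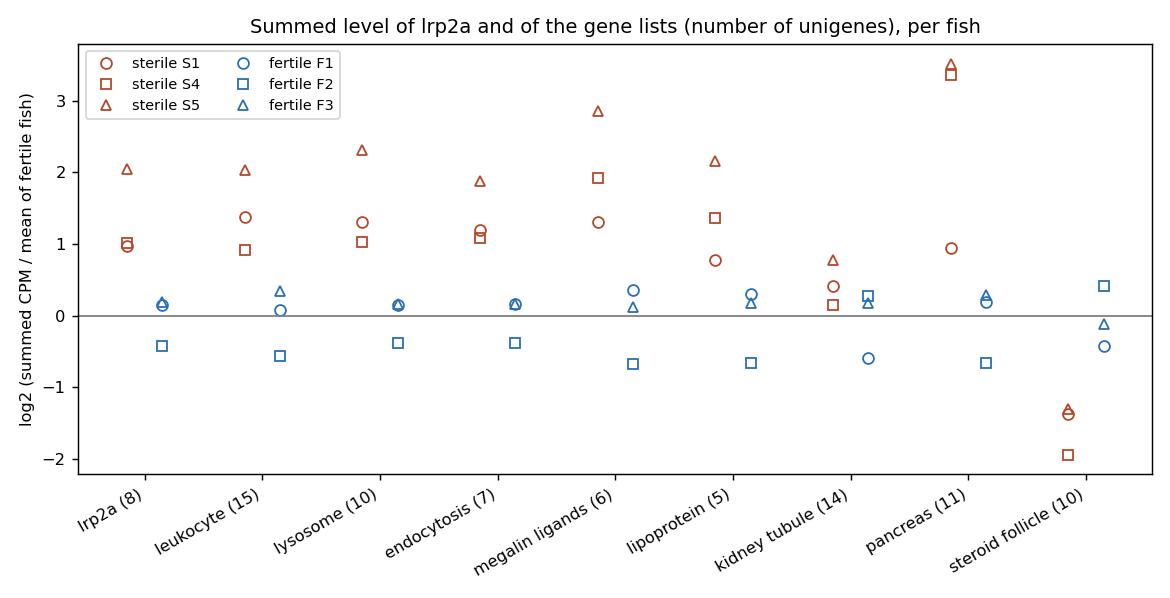
Summed CPM of lrp2a and of each gene list (number of unigenes in brackets) as the log2 ratio to the mean of the fertile fish, per fish, with sterile fish (red) left of fertile fish (blue). For lrp2a and the leukocyte, lysosome, endocytosis, megalin ligand, lipoprotein and pancreas lists the sterile fish lie above the fertile fish with S5 (triangle) on top. The kidney tubule list overlaps between the groups, and the steroid list is lower in all sterile fish.

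Markers of other tissues were mixed. In the kidney tubule and absorptive epithelium list, the cells in which megalin is best known, 7 of 14 unigenes were tested, 5 with positive and 2 with negative fold changes and none called, with a median of 1.29 on the log2 scale. Its summed level was 47.4 to 73.4 CPM in sterile and 28.5 to 51.7 CPM in fertile fish, which overlap, and most of it was *fbp1b* and *aqp1a.1*. *LOC555478* had 9.84, 9.49 and 17.6 CPM in S1, S4 and S5, against 3.93, 3.18 and 5.19 CPM in F1, F2 and F3. Like *lrp2a*, it and *ace*, for angiotensin-converting enzyme (ratio 2.43), had separate groups with S5 highest. *fbp1b*, a gluconeogenic enzyme (2.12), had separate groups with S1 highest. In 4 of the 14 unigenes every sterile fish was above every fertile fish, beside 11.2% of all tested unigenes. In another 4 every sterile fish was below every fertile fish, beside 10.7%. The tested unigenes with negative fold changes were *aqp1a.1* (ratio 0.465) and *slc4a4a* at *c7320_g1_i1_463_4923* (0.209). All 4 unigenes of *pck1*, another enzyme of gluconeogenesis, were at 0 or 1 count in every sterile fish. They had 6 to 40 counts in F1 and F2 but only 0 to 3 in F3. *anpepa* was at 0 in all 3 sterile fish, against 3, 2 and 6 counts in F1, F2 and F3. *enpep*, a peptidase of absorptive membranes, had 0.791, 3.65 and 5.45 CPM in S1, S4 and S5 at *Contig23983*, against 0.779, 0.0678 and 0.133 CPM in F1, F2 and F3, so that S1 resembled F1. The part of such cells in the *lrp2a* difference was not tested.

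Pancreatic enzyme transcripts summed to 5.53, 29.7 and 33.1 CPM in S1, S4 and S5, against 3.30, 1.83 and 3.53 CPM in F1, F2 and F3. Erythrocyte globins summed to 0.356, 16.1 and 8.50 CPM in S1, S4 and S5, against 0.297, 0.440 and 0.166 CPM in F1, F2 and F3. Both were thus high in S4 and S5 and low in S1, whereas *lrp2a* was at nearly the same level in S1 and S4. Of these lists 4 of 11 pancreatic and 0 of 3 erythrocyte unigenes passed the filter, and none was called. Without S4 and S5, the *lrp2a* ratio was 1.96, as given above for S1.

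As a sum, ovarian steroid cell markers were present in all 6 libraries and ran opposite to *lrp2a* between the groups. Some single members had no count in a sterile fish, and *Cyp11a1* at *c8996_g1_i1_612_1570* had none in S1, S4 and S5. *fshr*, the receptor for follicle-stimulating hormone, had 3.48, 1.96 and 3.18 CPM in S1, S4 and S5, against 4.15, 6.17 and 8.86 CPM in F1, F2 and F3, and *nr5a1b*, a steroidogenic transcription factor, had a ratio of 0.472. In 10 of 10 unigenes of the list every sterile fish was below every fertile fish, against 10.7% of all tested unigenes. Of 7 tested, 3 were called higher in fertile gonads, with a median log2 fold change of -1.85, where 0.137% of all tested unigenes were called in either direction. These unigenes too were selected on the contrast. F2, the fertile fish with the lowest *lrp2a*, had the highest sum of this list, 50.7 CPM, against 28.4 CPM in F1 and 35.3 CPM in F3. The fertile fish did not form a full mirror order, since *lrp2a* was highest in F3 but the sum was lowest in F1. Among the sterile fish S5 had the highest *lrp2a* and also the highest sum, 15.4 CPM, beside 14.8 CPM in S1 and 9.92 CPM in S4. Oocyte markers outside the study's list have no symbol in the sources used here and were not looked up.

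Total counts were 25024469 to 35719683 per library and TMM factors 0.913 to 1.05, S5 having the lowest factor. The median log2 fold change of all tested unigenes was 0.0099. TMM scaling centres the fold changes, so this median cannot show whether the groups differ by a shift. With library size only, the log2 ratio of the *lrp2a* sum was 1.30, beside 1.44 with TMM. At this depth *lrp2a* gave 103 to 597 counts per fish, so the sum is known to within roughly its Poisson interval while single members below 10 counts cannot be ordered.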

How the data were processed

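RNA-seq of 6 gonads (101 bp paired reads) was used. The authors built unigenes from their filtered reads with Trinity and CAP3, aligned the reads to them with BWA and deposited unnormalized counts. The version of BWA is 0.7.8-r455 according to the processing notes of the submitters. The paper names Picard for counting and the notes list HTSeq. The treatment of strand and of reads with several matches is not given in the sources, and reads may be shared between unigenes of almost the same sequence. The study's list was read for identifiers and symbols only. Its own fold changes and *p*-values were not used.

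Counts were fitted in R 4.3.3 with edgeR 4.0.16 (default filterByExpr, TMM, glmQLFit, glmQLFTest, Benjamini-Hochberg over 35787 unigenes), checked on simulated data with 200 changed unigenes. The check required recovery at the largest simulated fold only, so it does not show how well smaller differences are found. DESeq2 1.42.0, edgeR's exact test and limma-voom (limma 3.58.1) were alternatives, as were other filters, scalings and leaving out each library. CPM are counts over library size times TMM factor. Wilson intervals (95%) were computed in Python 3.11.15. Intervals cover counting error only. The named genes are all *lrp2a* unigenes, their neighbours in number, the 8 named unigenes most like summed *lrp2a*, and 9 lists of unigenes with a symbol in the study's list. The members and lists were chosen with earlier results of these data known. Columns S4 and S5 match no sample title and were assigned by letter. Ordered by total counts, the 6 libraries stand as the paper's do by clean reads, with S4 in the place of its sterile S2 and S5 in that of its sterile S3. The number of columns left unused was 0. The pair rule of at least 10 counts in every library left 1 pair, so all pairs were also given with 0.5 added.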

Additional observations from a re-analysis of the deposited data

How the results depend on the processing

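No paired analysis was possible because the labels match no sterile fish with a fertile one. Replicate numbers alone make no pairs, and columns S4 and S5 carry numbers that no title has. The *p*-values behind the calls measure only the spread between these libraries. The count of *lrp2a* unigenes with separate groups was 8 under every scaling. Leaving fish out cannot make separate groups overlap, so those settings say nothing about this count. The log2 ratio of the sum, 1.44, was 0.99 to 1.62 with any 1 fish left out. The number of *lrp2a* unigenes called was 0 in the edgeR fit and with any 1 fish left out, 4 by DESeq2 and 5 by edgeR's exact test. Over the whole table, 49 unigenes were called, 79 with no low-count filter, 322 by DESeq2, 533 by the exact test and 24 by limma-voom. With any 1 fish left out, 34 to 97 were called, 89 without S5 and 97 without F1. At an unadjusted *p* under 0.05 in the quasi-likelihood test and over 2-fold, the calls were 7 for *lrp2a* and 1059 over the whole table, in either direction. The standard deviation of the log2 ratio of member pairs, 0.234, was 0.430 over all pairs with at least 1 count, 0.153 around group means and 0.152 to 0.262 with 1 fish left out, lowest without F3. The median neighbour rank, 2361.5, was 1309 to 18599.5 with 1 fish left out, highest without S5. The chi-square per degree of freedom of the shares, 0.982, was 0.726 for the consecutive contigs and 0.789 to 1.16 with 1 fish left out, settings chosen after seeing the data. The cause of these shifts was not tested. Counts of 2 to 30 per fish in the smaller members limit what can be said of their shares.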
